A study of Bubalus bubalis with 8 samples.

Results

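The genes described here were those of MHC class II antigen presentation in buffalo MECs, the class II chains themselves (BOLA-D genes, after the bovine leukocyte antigen), the class II invariant chain CD74 and the class II transactivator CIITA. They were taken as every probe whose gene name started with BOLA-D or was CD74 or CIITA, which gave 10 of the 24837 gene names on the array and 28 of its 43653 probes. BOLA-DQA1 had 6 probes, CD74 had 5, BOLA-DRA, BOLA-DRB3 and BOLA-DQB had 3 each, BOLA-DQA2, BOLA-DQA3 and CIITA had 2 each, and BOLA-DYA and BOLA-DYB had 1 each. The set was chosen because BOLA-DRA and CD74 had been seen to be high at 30 min, 2 h and 16 h in these same data, so the levels at those times are a description and not a test. None of the 28 probes lay in the rectangle of the array, within columns 30 to 59 and a limited range of rows, whose spots were dark on the control array. None was saturated on any array.

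Class II molecules are pairs of an alpha and a beta chain that carry peptides from engulfed proteins to the surface of professional antigen-presenting cells such as macrophages, dendritic cells and B cells, where helper T cells read them. CD74 chaperones the new pair and fills its groove until lysosomal proteases trim it away and the HLA-DM type of exchange factor loads a peptide. Transcription of the whole set is switched on by CIITA, which interferon gamma can induce in other cells, and the mammary gland holds macrophages and lymphocytes beside its epithelium.

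The study compared unstressed buffalo MECs (CTR), kept at 37 °C, with cells heated at 42 °C for 1 h and then returned to 37 °C, harvested at 7 time points from 30 min to 24 h post heat stress (30 min and 2 h, then every 4 h from 4 h to 16 h, then 24 h). All 8 conditions used primary MECs at passage 10, grown from the mammary tissue of 1 healthy adult riverine buffalo and purified by selective trypsinization, so by the description of the methods the series is a model of 1 culture of 1 animal. Each condition was hybridised to 1 bovine oligonucleotide array with 1 colour. With 1 array per condition there was no replicate, no test between conditions and no p-value, and every difference below is a difference between 2 arrays.

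The probes were 60 bases long and were designed on cattle sequence, and the class II genes are among the most variable between individuals and species, so a few probe sequences are shown because their results differed from each other. They are printed 5′ to 3′ as given in the array files, and in each pair of overlapping probes the capitals mark the bases at which the pair differs.
BOLA-DRA A_73_P438206: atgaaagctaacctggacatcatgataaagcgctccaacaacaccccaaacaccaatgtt
BOLA-DRB3 A_73_P062206: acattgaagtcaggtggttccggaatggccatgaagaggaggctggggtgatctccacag
BOLA-DRB3 A_73_P045206: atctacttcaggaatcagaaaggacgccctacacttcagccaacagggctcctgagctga
BOLA-DQA1 A_73_P245636: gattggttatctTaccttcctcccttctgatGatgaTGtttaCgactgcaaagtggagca
BOLA-DQA2 A_73_P039756: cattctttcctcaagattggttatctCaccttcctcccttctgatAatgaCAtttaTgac
BOLA-DQA1 A_73_P052576: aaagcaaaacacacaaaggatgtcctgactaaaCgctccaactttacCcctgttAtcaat
BOLA-DQA1 A_73_P235072: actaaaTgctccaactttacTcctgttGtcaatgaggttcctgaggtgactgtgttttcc
BOLA-DQB A_73_P052096: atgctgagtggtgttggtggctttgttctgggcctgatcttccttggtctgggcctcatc
CD74 A_73_P106621: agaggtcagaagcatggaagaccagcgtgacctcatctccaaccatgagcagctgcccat
CD74 A_73_P106626: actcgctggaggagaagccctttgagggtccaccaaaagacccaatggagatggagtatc

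Per the file headers the coordinates refer to the cattle build HGSC Btau 3.1. On it the BOLA-DRA probe lay on the minus strand at chr23:26441386-26441877, a span of 492 bases for a probe of 60, so it crossed at least 1 intron. The BOLA-DQB probe lay on the plus strand at chr23:26223883-26223942 and the BOLA-DQA2 probe on the minus strand at chr23:26190182-26190241. CD74 lay on another chromosome, with A_73_P106621 on the minus strand at chr7:61223804-61223863 and A_73_P106626 at chr7:61217142-61218860, which spanned 1719 bases. The BOLA-DQA1 and BOLA-DRB3 probes printed here had no chromosome in the files. The BOLA-DQA1 and BOLA-DQA2 probes of the first pair overlapped by 46 bases, of which 41 were identical, and the 2 BOLA-DQA1 probes of the second pair overlapped by 33 bases, of which 30 were identical.

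The arrays lay on 2 slides, with CTR, 8 h, 12 h and 24 h on slide 1 and 30 min, 2 h, 4 h and 16 h on slide 2. Slide and heat stress therefore cannot be told apart when a slide 2 array is set against CTR, and the 4 h array was used as a second reference within slide 2. Between 23.0% and 40.1% of probes were above background on an array. Over the 7262 probes above background on all 8 arrays, the levels at 30 min and 2 h had a Pearson correlation of 0.98, those at 4 h and 16 h 0.94, and those of CTR with slide 2 arrays 0.86 to 0.89, all points sharing array design and normalization. The spread between the repeated spots of 1 probe, the only error that could be measured, had a median SD of 0.21 to 0.26 on log2 scale on the arrays other than 30 min and 16 h and of 0.42 at 16 h. It covers the spots of 1 array and not a second culture. The epithelial label was checked on 10 genes of keratins, cadherin and other epithelial markers, of which 9 were above background in CTR. Keratin 18, one of those used to label luminal epithelium, was above background at 2 h and 16 h and not on the 6 other arrays.

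Levels are given as log2 of the processed spot signal above the 75th percentile of the same array, so 0 is that percentile and each unit is a doubling. A probe was called above background where Feature Extraction, the scanner software, marked it so. Where it was not, its level is an upper bound, and a fold change against it is given as at least that size, taken against the lowest signal called above background on that array. These limits lay between -1.96 at 2 h and 0.22 at 24 h. On each array 6 to 18 of the probes shared 1 lowest value, which says only that a probe was not above background. The level at 30 min came from the deposited value table, as described in the processing section, and was called above background at 0.22 or more. Below, levels listed for slide 2 are in order of time, that is 30 min, 2 h, 4 h and 16 h.

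For most class II and CD74 probes the signal was at or near background in unstressed cells and at 8 h, 12 h and 24 h. It was high for many of them at 30 min and 2 h and for some at 16 h. Of the 28 probes, 2 were above background in CTR, and 2, 4 and 1 on the 8 h, 12 h and 24 h arrays of the same slide. On slide 2 the numbers were 19, 21, 13 and 12. The 4 slide 2 arrays held 12 to 21 of these probes and the 4 slide 1 arrays held 1 to 4, so the groups of arrays did not overlap. Over all probes the share above background was 27.5%, 27.7%, 33.2% and 23.0% on the slide 1 arrays CTR, 8 h, 12 h and 24 h, and 23.2%, 40.1%, 37.5% and 25.4% on slide 2, and these ranges overlapped. The probes above background in CTR were 1 to BOLA-DQA1 and 1 to BOLA-DQA2, and none was to BOLA-DRA or CD74.

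**Figure D1:**
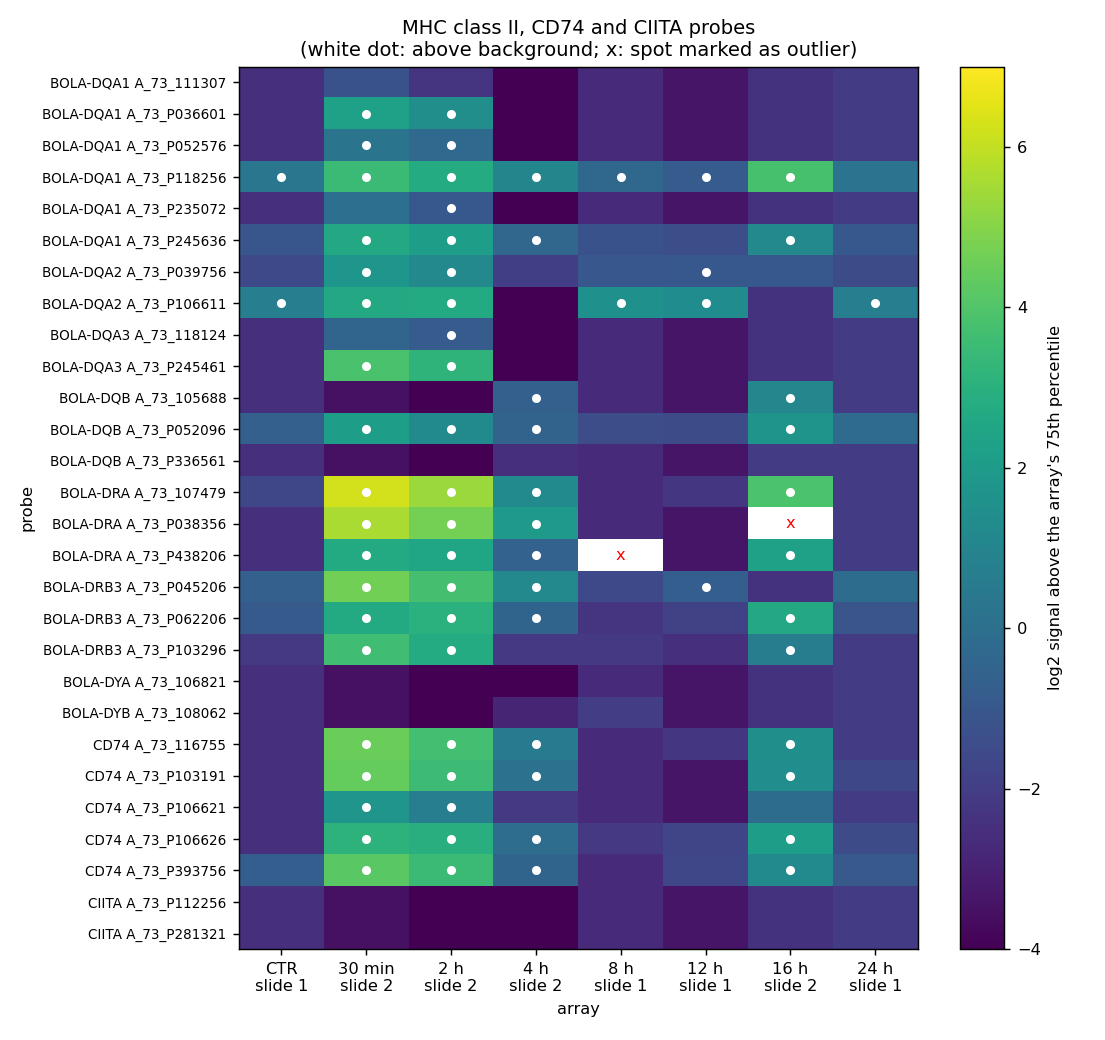
Level of each of the 28 probes (rows) on each of the 8 arrays (columns) as log2 signal above the array's 75th percentile, with a white dot where the probe was above background and a red x where the spot was marked as an outlier. The 4 slide 2 arrays hold 12 to 21 white dots and the 4 slide 1 arrays hold 1 to 4.

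BOLA-DRA encodes the nearly invariant alpha chain of the DR molecule. Its brightest probe, A_73_107479, had levels of 6.23, 5.33, 1.20 and 3.88 on slide 2. On slide 1 it was not above background, with -1.67 in CTR and -2.69, -2.26 and -2.09 on the 8 h, 12 h and 24 h arrays. All 4 slide 2 levels were above every slide 1 level. Against CTR the slide 2 levels were at least 86.4-fold, 46.2-fold, 2.64-fold and 16.9-fold higher, with errors between spots of 0.30, 0.32, 0.31 and 0.47 on log2 scale.

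The level values of the other BOLA-DRA probes had the same order of arrays where they could be read, but not every step exceeded the error between spots. A_73_P038356 had 5.59, 4.69 and 1.92 on the first 3 arrays of slide 2, was not above background on the slide 1 arrays, and was marked as an outlier spot at 16 h, so it has no value there. The exon-spanning probe printed above, A_73_P438206, was lower, at 2.71, 2.47, -0.56 and 2.30 on slide 2, and its spot at 8 h was marked as an outlier. Its steps from 30 min to 2 h and from 2 h to 16 h were within the errors between spots of 0.32 and 0.48. Its bounds against CTR were 7.53-fold at 30 min, 6.37-fold at 2 h and 5.65-fold at 16 h.

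CD74 followed the same times. Its probe A_73_116755, the one with the highest median over the arrays, had levels of 4.54, 3.73, 0.55 and 1.50 on slide 2, and was not above background on slide 1, where it lay between -2.69 and -2.09. These were at least 26.8-fold, 15.2-fold, 1.68-fold and 3.24-fold higher than CTR. A_73_P103191, which shares 46 of its bases with that probe and is not a separate reading of the gene, had 4.40, 3.54, 0.10 and 1.38 on the same arrays. A_73_P393756 had 4.20, 3.50, -0.48 and 1.27.

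The CD74 probes printed above differed more from these. A_73_P106626 had slide 2 levels of 3.1, 2.94, -0.06 and 2.17, so that its 16 h level was 5.18-fold or more above CTR. A_73_P106621, toward the other end of the gene, was above background at 30 min and 2 h, at 1.76 and 0.71, and not at 4 h or 16 h, where it had -2.18 and -0.10. The 16 h value lay just under the limit of that array, which was -0.09.

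**Figure D2:**
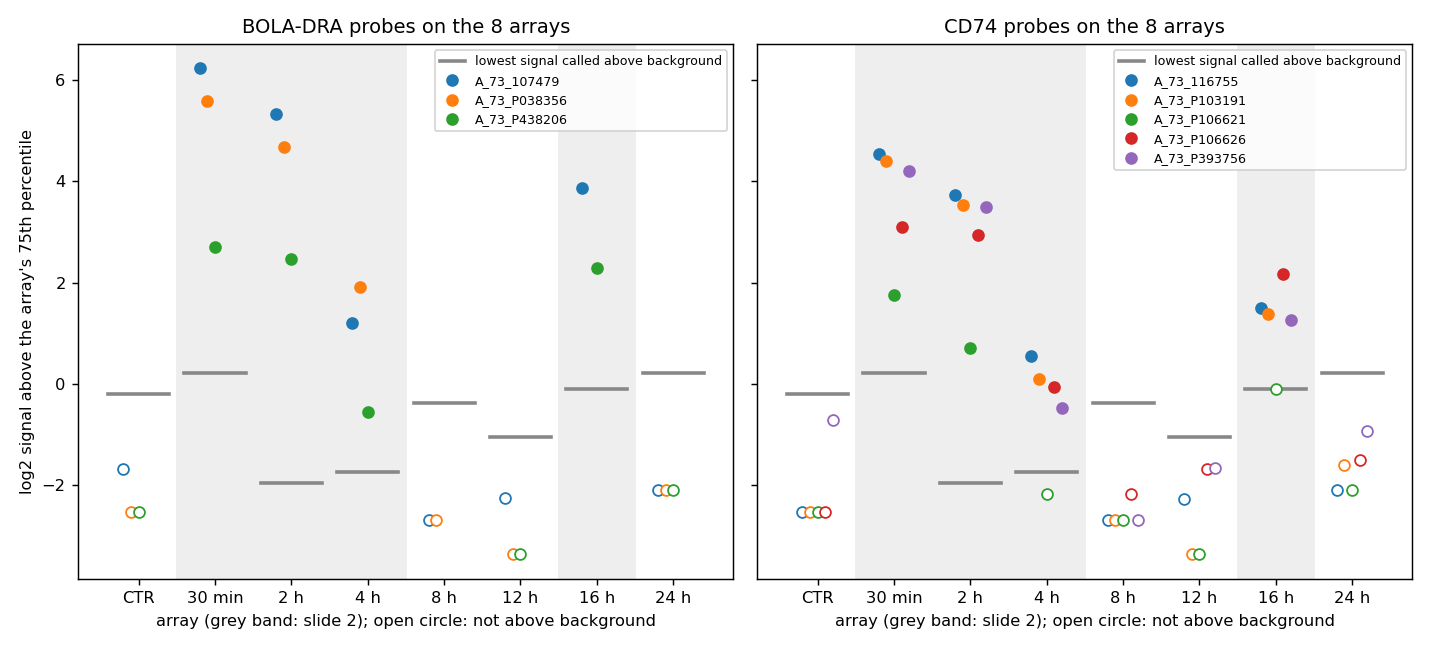
Levels of the 3 BOLA-DRA probes and the 5 CD74 probes on each array (log2 signal above the array's 75th percentile), with filled circles where the probe was above background, open circles where it was not, and grey lines at the lowest signal called above background. Filled circles appear on the arrays of slide 2 (grey bands) and on none of slide 1.

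The beta chain of DR is encoded by BOLA-DRB3, the most expressed and most variable DRB gene of cattle. A_73_P062206 had levels of 2.74, 3.02, -0.45 and 2.62 on slide 2, and -0.91 in CTR, below background. It was at least 7.67-fold, 9.34-fold and 7.07-fold higher than CTR at 30 min, 2 h and 16 h. A_73_P103296 had 3.64 and 2.75 at 30 min and 2 h and 0.66 at 16 h.

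The third BOLA-DRB3 probe went another way at 16 h. A_73_P045206 had levels of 4.64, 3.78 and 1.18 on the first 3 arrays of slide 2, and at 16 h it had -2.40, the lowest value of that array, which 12 probes shared. It was therefore at least 2.40-fold lower at 16 h than at 4 h, while A_73_P062206 of the same gene was 8.40-fold higher. The probe also passed the background limit at 12 h, at -0.71.

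The DQ molecule is the second classical class II pair, and in cattle its alpha chains are encoded by the duplicated genes BOLA-DQA1, BOLA-DQA2 and BOLA-DQA3. Probes to them fell into groups by the arrays on which they were above background. A_73_P245461 to BOLA-DQA3 had 3.82 at 30 min and 3.14 at 2 h and was not above background on the 6 other arrays. A_73_P036601 to BOLA-DQA1, which matches it at 49 of 51 overlapping bases, had 2.28 and 1.45 at those times and likewise was below background elsewhere. Because of that overlap these probes may read the same transcript, and the signal cannot be split between the genes.

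The printed BOLA-DQA1 probe A_73_P052576 also passed background at 30 min and 2 h alone, at 0.24 and -0.22, and its overlapping partner A_73_P235072 at 2 h alone, at -0.96. Both lay close to the limit. The printed probe A_73_P245636 to the same gene was instead above background on all 4 slide 2 arrays, with 2.65, 2.18, -0.37 and 1.16. A_73_P118256 was above background on 7 arrays, with 3.49, 2.77, 1.03 and 3.81 on slide 2 and, on slide 1, 0.33 in CTR, -0.30 at 8 h and -0.81 at 12 h. It was the only member probe above background on both arrays of the 16 h comparison with CTR, and it was 11.1-fold higher at 16 h, 8.93-fold at 30 min and 5.39-fold at 2 h.

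One BOLA-DQA2 probe was above background on every slide 1 array. A_73_P106611 had levels of 0.70 in CTR and 1.52, 1.35 and 0.69 on the other slide 1 arrays, all above background, and 2.65 at 30 min and 2.74 at 2 h. At 4 h and 16 h it had -4.05 and -2.40, the lowest values of those arrays, shared there by 10 and 12 probes. Against CTR it was at least 5.39-fold lower at 4 h. The bound at 16 h was 1.73-fold lower, on an array with a higher limit. The other BOLA-DQA2 probe, A_73_P039756, had 1.77 at 30 min and 1.18 at 2 h, passed the limit at 12 h with -0.95, and was not above background at 4 h or 16 h.

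The DQ beta chain gene BOLA-DQB showed the reverse for 1 of its probes. A_73_105688 was above background at 4 h and 16 h, at -0.61 and 1.08, and had -3.50 at 30 min and -4.27 at 2 h, the lowest values of those arrays, shared by 6 probes on each. It was at least 2.54-fold lower at 2 h than at 4 h. The printed probe A_73_P052096 was above background on all 4 slide 2 arrays, with 2.12, 1.20, -0.51 and 1.68, and the third, A_73_P336561, on none of the 8 arrays.

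Of the 28 probes, 8 were above background at 30 min or 2 h and at neither 4 h nor 16 h, 1 was above background at 4 h or 16 h and at neither 30 min nor 2 h, 13 were seen in both pairs of times and 6 in neither. Over all 40296 probes outside the dark area the same counts were 2089, 1281, 14055 and 22871. Local signal was checked as a possible source of a missing value. The bright probes within 10 spots of each member deviated from the other arrays by a median of -0.87 to 0.61 on log2 scale, the extremes both at 16 h. No member on the 7 arrays with usable scanner intensities was surrounded by spots dimmed by 1 unit or more. Smaller dimming at 16 h lay around some probes below background there. It was -0.87 for BOLA-DQA2 A_73_P039756, -0.75 for A_73_P106611 and -0.61 for BOLA-DRB3 A_73_P045206. For the BOLA-DQA1 probes A_73_P052576 and A_73_P235072 it was -0.80 and -0.64. BOLA-DRA A_73_P038356, whose 16 h spot was marked as an outlier, had -0.79. CD74 A_73_P393756 had -0.75 and was above background, and BOLA-DQA3 A_73_P245461 had 0.08 and was not. The part of local signal in the missing values was not tested, and the surroundings were not checked at 30 min.

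CIITA, the switch of class II transcription, was not above background with either of its 2 probes on any of the 8 arrays, and both probes had the shared lowest value on every array. BOLA-DYA and BOLA-DYB, the ruminant DY pair expressed in dendritic cells, were likewise not above background on any array with their single probes. For these genes the arrays give only upper bounds, and no change was detectable.

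At 3-fold or more against CTR, 18 of the 19 members that could be tested were higher at 30 min, where the background over all probes was 6.72%, and 15 of 21 at 2 h, where it was 4.60%. At 16 h it was 8 of 13 with a background of 4.89%, and at 4 h 1 of 14 with 2.31%. The counts for the slide 1 arrays, 8 h, 12 h and 24 h, were 0 of 2, 0 of 4 and 0 of 2, against 0.468%, 0.0958% and 0.0802%. The share at 30 min, 2 h and 16 h is what the choice of the genes used, so nothing is read from it. In the other direction 1 member was 3-fold lower at 4 h, the BOLA-DQA2 probe, where 5.20% of all probes were. Centring each array on its median in place of the 75th percentile changed the split at 4 h to 5 higher and 0 lower, where 15.7% of all probes were higher. A member could be tested where at least 1 of the compared arrays showed it above background, so most of those tested passed through the array where they were high, and members below background on both are not counted.

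The member median was 3.16, 2.67, 0.07 and 1.70 on log2 scale for the slide 2 arrays in time order, beside medians over all probes tested of -0.13, 0.00, 0.00 and -0.04. Most of these are bounds: of the probes counted as 3-fold higher, 2 at 30 min, 2 at 2 h and 1 at 16 h were above background in CTR as well.

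**Figure D3:**
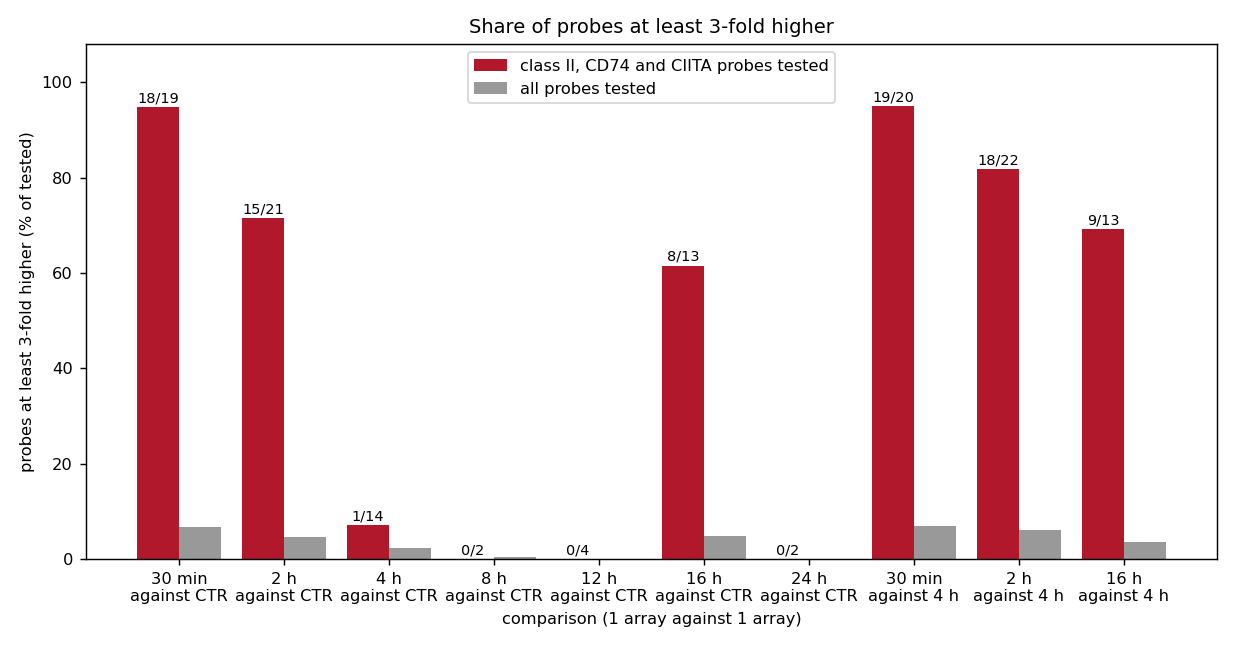
Share of probes at least 3-fold higher (percent of those tested) for the class II, CD74 and CIITA probes (red, with counts) and for all probes (grey) in the 7 comparisons with CTR and the 3 comparisons with the 4 h array of the same slide. The red bars stand at 61.5% or more for 30 min, 2 h and 16 h, and no grey bar is above 6.96%.

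Within slide 2, 19 of 20 members tested were 3-fold higher at 30 min than at 4 h (background 6.96%), 18 of 22 at 2 h (6.06%) and 9 of 13 at 16 h (3.53%). These shares follow from the same choice of genes, so nothing is read from them either. Of the members tested, 12 of 20, 12 of 22 and 11 of 13 were above background on both arrays. BOLA-DRA A_73_107479 was 32.7-fold higher at 30 min than at 4 h, and 17.5-fold and 6.38-fold higher for 2 h and 16 h. CD74 A_73_116755 was 16.0-fold, 9.07-fold and 1.93-fold higher, and the last value reversed to a log2 change of -0.25 when each array was centred on its median.

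The comparison of 16 h with 4 h also depended on the scaling, as that of 4 h with CTR did. All 11 members above background on both arrays were higher at 16 h on the 75th percentile scale, by 0.95 to 3.07 on log2 scale, and 10 of 11 were higher on the median scale. The number past 3-fold fell from 9 to 2 of 13 on the median scale, with 1 lower, on which 0.850% of all probes were 3-fold higher and 17.2% lower. For 30 min and 2 h against 4 h, all 12 members above background on both arrays were higher on both scales.

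**Figure D4:**
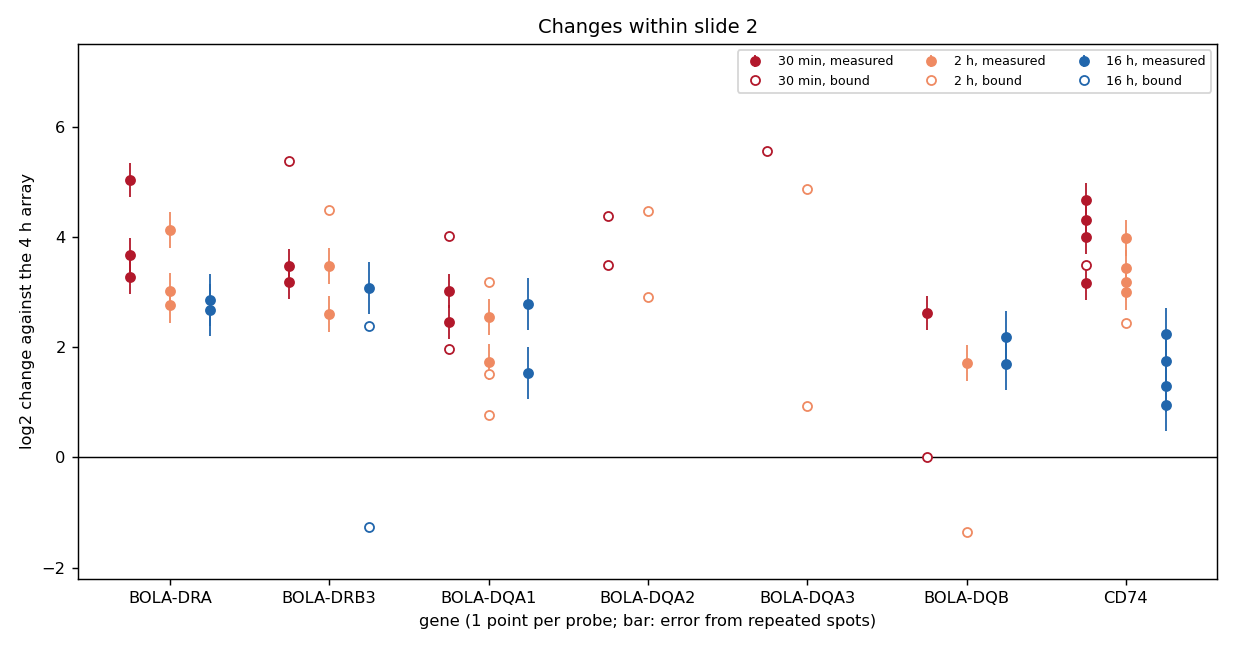
Change of each member probe (1 point each, grouped by gene) at 30 min, 2 h and 16 h against the 4 h array of the same slide, as log2 difference, with filled points where both arrays were above background and open points where the value is a bound. All filled points lie above 0, with bars giving the error between repeated spots, and BOLA-DQA2 and BOLA-DQA3 have open points only. The open points below 0 are BOLA-DRB3 A_73_P045206 at 16 h and BOLA-DQB A_73_105688 at 2 h. The open point at 0 is A_73_105688 at 30 min, where the limit lay above the 4 h level and gave no bound.

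The order of levels from the highest was 30 min, 2 h, 16 h, 4 h for BOLA-DRA A_73_107479 and CD74 A_73_116755. With median centring 4 h and 16 h changed places for that CD74 probe, by a log2 change of -0.25 with an error between spots of 0.47. It was the only member above background on both arrays to do so. Over the 19 members above background at both 30 min and 2 h, 17 were higher at 30 min, with a median difference of 0.73 on log2 scale, and 4 of the 19 differences were within the error between spots of 0.32. Over the 11 members above background at both 2 h and 16 h, 9 were higher at 2 h, by a median of 1.02, with 2 differences within the error of 0.48. The 2 higher at 16 h were the BOLA-DQA1 probe A_73_P118256 and the BOLA-DQB probe A_73_P052096. With median centring 18 of 19 were higher at 30 min than at 2 h and 10 of 11 higher at 2 h than at 16 h, and the BOLA-DQB probe was no longer higher at 16 h.

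A further 17 probes to class II genes carried other names in the files, such as BLA-DQB, DSB, HLA-DMA and HLA-DOB, and were chosen after values were seen. Of these 17 probes, 6 of 8 tested were 3-fold higher than CTR at 30 min, and 7 of 11, 1 of 8 and 6 of 10 on the later slide 2 arrays, beside 6.72%, 4.60%, 2.31% and 4.89% of all probes. With median centring the counts were 8 of 10, 7 of 11, 6 of 8 and 6 of 10, beside 15.3%, 9.20%, 15.7% and 4.37% of all probes. The 4 h count thus depended on the scaling. BLA-DQB A_73_P031816 had slide 2 levels of 3.47, 2.56, 0.97 and 3.36, and DSB, named as a DR beta chain, had 3.51, 3.30, 0.65 and 2.86. HLA-DQA1 A_73_P062199 was seen at 4 h and 16 h, at -0.88 and 2.27, and had -3.50 and -4.27 at 30 min and 2 h, as the BOLA-DQB probe did. HLA-DMA, a chain of the peptide exchange factor, was above background in CTR with 0.10 and differed less from it, with 0.78 at 30 min, 0.77 at 2 h and 1.45 at 16 h. HLA-DOB, a chain of the factor that restrains DM in B cells, was not above background on any array.

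Genes of the same pathway were taken from fixed lists, and the shares of all probes just given apply to each of them. In the list of lysosomal processing (35 probes, 13 genes) 12 of 31, 12 of 32, 0 of 28 and 6 of 27 tested probes were 3-fold higher than CTR on the slide 2 arrays, and none was 3-fold lower. Median centring gave 20 of 32, 16 of 32, 8 of 28 and 4 of 27. Cathepsin S, the protease that makes the last cut of the invariant chain in antigen-presenting cells, had levels of 5.38, 4.15, -0.47 and 2.42 with its probe A_73_P260691 and was below background on slide 1. IFI30, the lysosomal thiol reductase induced by interferon gamma, had 4.97, 4.27, 0.30 and 1.69 with A_73_101156. Cathepsin D, a general lysosomal protease, was already bright in CTR, with 3.81 for A_73_121424, and had 7.03, 7.11, 3.44 and 4.85 on slide 2.

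In the list of interferon gamma signalling (29 probes, 13 genes) 8 of 13, 6 of 16, 0 of 13 and 3 of 8 tested probes were 3-fold higher, with none 3-fold lower. Median centring gave 12 of 15, 10 of 16, 7 of 13 and 2 of 8, so the 0 at 4 h held only on the 75th percentile scale. IRF1, the interferon-induced transcription factor that acts on the CIITA promoter, had 3.35, 4.09, 0.40 and 1.85 and was below background in CTR. IRF8, a factor of macrophages and B cells, had 3.57, 2.64, 0.36 and 0.11. IFNG itself was not above background on any array. Among the costimulatory genes (12 probes, 7 genes) the probes 3-fold higher were to CD40 and to CD86, the latter giving T cells their second signal. They were 3 of 3 tested at 30 min and 3 of 7 tested at 2 h. CD86 was below background at 4 h and 16 h, and CD40 had 0.43 at 16 h against 0.78 in CTR. In the list of class II transcription (19 probes, 9 genes, with the RFX and NFY subunits that bind class II promoters), the 2 probes past 3-fold at 30 min of 7 tested and the 1 at 2 h of 12 tested were to PRDM1, a repressor of CIITA in plasma cells. On the median scale the count in that list was 3 of 11 and 3 of 12.

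MHC class I molecules, which nearly all nucleated cells carry, present peptides from inside the cell. Their list, with B2M and the peptide loading genes, held 35 probes to 9 genes outside the dark area. A further 5 probes to BOLA1, BOLA2B and BOLA3, which share only the name and belong to the BolA family, were left out after values were seen, and none of them passed 3-fold in any comparison. Of the 9 genes, 5 were above background in CTR, and BOLA-N, PSMB8, PSMB9 and TAP1 were not. Against CTR, 21 of 26, 22 of 29, 0 of 24 and 12 of 23 tested probes were 3-fold higher on the slide 2 arrays, with none lower. Median centring gave 23 of 27, 24 of 29, 7 of 24 and 12 of 23. The probes past 3-fold were to B2M, BOLA, BOLA-N, BOLA-NC1, PSMB8 and PSMB9, and none was to TAP1, TAP2 or TAPBP. BOLA A_73_115812 had levels of 3.48 in CTR, 7.03, 7.21, 4.06 and 6.48 on slide 2, and 2.78 to 3.29 on the slide 1 arrays after heat. Another BOLA probe, A_73_P032576, had 0.25 in CTR and 3.57, 3.84, 0.48 and 0.05 on slide 2, so it was not higher at 16 h. PSMB8, an immunoproteasome subunit, was below background on slide 1 and had 3.69, 3.63, -0.21 and 2.27 with A_73_107343.

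Markers of leukocytes, some of which carry class II, were also above background more often at 30 min and 2 h than in CTR. Of 66 leukocyte probes to 28 genes outside the dark area, 7 to 9 were above background on the slide 1 arrays and 32, 42, 13 and 15 on those of slide 2. Against CTR, 22 of 33, 22 of 42, 2 of 13 and 5 of 17 tested probes were 3-fold higher, and 27 of 39, 25 of 42, 2 of 13 and 4 of 17 with median centring. In the other direction CD4, a T cell coreceptor, was 4.66-fold lower at 2 h and 3.95-fold lower at 4 h. CD79A, a part of the B cell receptor, was 4.45-fold lower at 4 h, and CD3D, a part of the T cell receptor, at least 3.52-fold lower at 16 h. With median centring 1 probe was 3-fold lower, at 16 h, and none at the other times of slide 2. Lymphocyte markers also went up. The probes 3-fold higher than CTR included ones to CD3E and CCR7 at 30 min and to CCR7 at 2 h. Against 4 h, probes to CD3E, CD8A and LCK were 3-fold higher at 30 min, and probes to CD3E, CD3G, CD37 and LCK at 2 h. Of the leukocyte probes above background on both arrays compared, 3 of 6, 5 of 7, 6 of 7 and 1 of 5 were lower than in CTR, and 1, 3, 3 and 2 with median centring. Their summed signal, in units of the 75th percentile of each array, was 30.2 to 46.0 on slide 1 and 498, 401, 35.2 and 83.4 on slide 2. The summed signal of the 28 class II, CD74 and CIITA probes in the same units was 8.07 to 11.3 on slide 1 and 304, 182, 19.8 and 65.2 on slide 2. All summed signals given here and below take every probe of a list, above background or not, and so are upper bounds. On slide 1 only 1 to 4 of the 28 probes were above background.

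LAPTM5, a lysosomal membrane protein of blood cells, had levels of 6.37, 6.24, 1.43 and 3.49 on slide 2, and was below background on slide 1. TYROBP, the signalling adaptor of myeloid cells, had 5.74, 5.25, -0.77 and 1.36 with A_73_118891. CSF1R, the growth factor receptor of macrophages, had 4.38, 3.94, -0.24 and 2.06 with A_73_118762. CD14 and CD48 were above background at 30 min and 2 h and not at 4 h or 16 h. CD163, CD79B, ITGAM and MS4A1 were not above background on any of the 8 arrays. In these bulk samples, fewer cells of a type and less RNA per cell cannot be told apart, and the part of leukocyte RNA in the class II levels was not tested.

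Some other cell markers differed between the slides, and others overlapped. Of the tested epithelial probes, 6 of 15, 6 of 18, 4 of 16 and 5 of 16 were 3-fold lower than CTR on slide 2, and none higher. The shares over all probes were 4.61%, 7.75%, 5.20% and 4.60%. The median change of the tested epithelial probes was -1.51, -1.21, -0.84 and -0.45 on log2 scale. Median centring moved changes against CTR by 0.96, 0.70, 1.09 and -0.11 at these times, so the size of this fall depended on the scaling. Summed epithelial signal was 670 to 905 on slide 1 and 303, 315, 463 and 694 on slide 2, so 16 h fell within the slide 1 range. The 4 probes to KRT8, a luminal keratin, ran from 2.01 to 6.99 in CTR and had their highest level at 3.28 to 4.69 on slide 2 and at 6.38 to 6.74 on the slide 1 arrays after heat. Summed milk protein signal (21 probes to the caseins, LALBA and PAEP) was 6.44 to 9.82 on slide 1 and 202, 104, 1554 and 2814 on slide 2. The milk proteins were thus highest at 4 h and 16 h, whereas class II signal was highest at 30 min and 2 h. Of 47 fibroblast probes, 26 were above background at 16 h and 5 to 16 on the other arrays. The part of these in the class II levels was not tested. Whether the RNA on slide 2 came from the same cells as that of CTR was likewise not tested, and each fold against CTR assumes it.

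**Figure D5:**
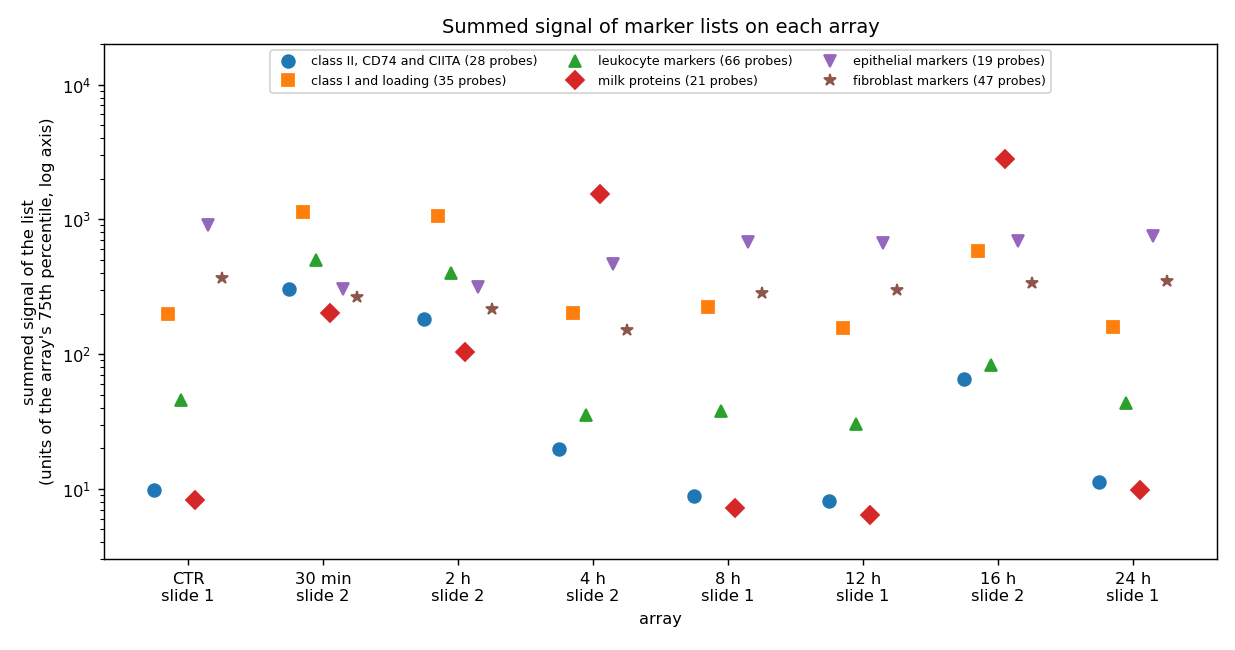
Summed signal of 6 lists of probes on each array in units of the array's 75th percentile (log axis), with 1 symbol per list. Probes below background are included in the sums. The class II and leukocyte symbols are highest at 30 min and 2 h, intermediate for class II at 16 h, and the milk protein symbols are highest at 4 h and 16 h.

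Outside the member set, the 5 genes with levels most like those of BOLA-DRA A_73_107479 over the 8 arrays were found by Pearson's r. The search took 10985 probes with a gene symbol and above background on at least 3 arrays. The 28 member probes were left out of it, as were the dark area and probes lacking a value on any array. The 5 genes were CTSZ with 0.999, MGC126945 with 0.997, IFITM2 with 0.994, LAPTM5 with 0.993 and CTSB with 0.993. CTSZ, a lysosomal cathepsin, had levels of 6.19, 5.62, 1.37 and 3.97 on slide 2 and was below background on slide 1. CTSB, another lysosomal cathepsin, was bright on every array and ran from 4.28 at 12 h to 6.75 at 30 min. Values below background were set to the limit of their array for this measure, so the points share slide and limit, and the r values are a description of 8 arrays.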

How the data were processed

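RNA of 8 samples of buffalo MECs was hybridised by the authors to bovine Agilent arrays with 1 colour (Cy3), and the deposited scanner files hold the processed intensity of each spot from Feature Extraction 9.5.3.1. The deposited value table holds log2 values that the authors made in GeneSpring GX with 75th percentile scaling, centred on the median of each probe. The scanner intensities of 30 min could not be used: over 7965 bright probes their change against CTR correlated with that of the table at r = 0.19, while the other arrays reached 1.0. The 30 min level was therefore CTR plus the difference of the table. For the other arrays, log2 of the processed signal minus the array's 75th percentile was computed, outlier spots were left out, and levels below background were raised to the lowest signal called above background. The members and lists were chosen with earlier results of these data known. Genes named were all members, list genes past 3-fold or the brightest, and the 5 outside the member set most like BOLA-DRA. There was no replicate and no test. The error is the median SD over the spots of probes printed 4 or more times, and its precision is limited by 15 to 24 such probes per array. For 30 min the SD of CTR stood in. Of the 10 member names, CD74 and CIITA matched buffalo RefSeq symbols. Calls were tested on simulated data. Python 3.11.15, numpy 2.4.6, pandas 2.3.3 and limma 3.58.1 in R 4.3.3 (normexp with offset 50) were used.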

Additional observations from a re-analysis of the deposited data

How the results depend on the processing

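Of 189 values recomputed under other settings, 144 stayed within the error between spots (changes) or within 1.5 times (counts), 44 moved and 1 reversed. Counts of members at least 3-fold higher were 18 of 19, 15 of 21, 1 of 14 and 8 of 13 at 30 min, 2 h, 4 h and 16 h. Keeping only probes above background on both arrays left few to test and gave 2 of 2, 2 of 2, 0 of 1 and 1 of 1. At 4 h the count was 3 with normexp, 0 with quantile normalization, 5 with median centring, 8 with no filter and floor, 3 at 2-fold and 2 with class II probes under other names, the last chosen after seeing the data. The share of all probes there was 2.31% in the main setting, 2.11% with quantile normalization and 15.7% with median centring. It is not given here for the other settings. At 16 h it was 5 with a common floor, 13 with no filter and floor and 14 with the other names, and at 8 h 1 with outlier spots kept. With no filter and floor the change in BOLA-DRA against CTR was 7.90, 7.0, 2.87 and 5.54 at 30 min, 2 h, 4 h and 16 h, and in CD74 7.06, 6.24, 3.06 and 4.01, on log2 scale. With a common floor BOLA-DRA gave 6.01, 5.11 and 0.98 and CD74 4.32, 3.50 and 0.32 at 30 min, 2 h and 4 h. Median centring, which moved the median of all probes by -1.20 to 1.09, gave BOLA-DRA 7.39, 6.23 and 2.49 and CD74 5.70, 4.63 and 1.84 at those times. Against 4 h it gave 3.74 and 1.47 for BOLA-DRA at 2 h and 16 h and 2.79 for CD74 at 2 h, and CD74 A_73_116755 at 16 h reversed to -0.25. Normexp gave BOLA-DRA 3.52 at 16 h, CD74 1.11 at 4 h, and against 4 h 1.91 and 0.39 at 16 h. The 30 min scanner intensities gave BOLA-DRA 8.88 against CTR and 7.47 against 4 h, and CD74 0.00 against 4 h. Apart from fewer probes, the cause was not tested. BOLA-DRA and CD74 had no value at 8 h, 12 h and 24 h, where both arrays were below background, and normexp and kept outlier spots were not run for 30 min, which came from the table. No paired analysis was possible because each condition had 1 array.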
